A study of Rattus norvegicus with 6 samples.

Results

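The genes described here are 49 genes of the G2 phase and of mitosis, given as a list of symbols and sorted by role into cyclin-CDK and mitotic entry, checkpoint and anaphase, kinesin and spindle, kinetochore and passenger complex, cytokinesis, and condensin and chromosome. A gene was taken where its symbol stood in the deposited table of 23091 genes, and where a symbol stood on several identifiers the one with the most counts was used. This gave 48 genes, all of which passed the filter on low counts, so that none entered only through the group where it was high. Nek2, a centrosome kinase, was matched to no row by its symbol and was not analysed here (a row named Nek2l1 was not taken for it). Ube2c and Anln each stood on 2 identifiers.

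Messenger RNA was profiled in wild-type (WT) rat marrow mesenchymal stem cells (MSCs), adherent stromal cells of the bone marrow, after 7 days in neural differentiation medium. The 3 CK samples received DMSO, a common solvent, and the 3 CYSP samples received CYSP, a treatment that the labels name without spelling out. The labels give no strain, age or passage. Nothing in them ties a replicate to its own culture or animal, so p-values measure only how far these samples spread, and that spread may be technical. The series asks how CYSP acts on MSCs on the way to neurons, and the comparison bears on the transcripts of dividing cells in that setting.

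Cells enter mitosis when cyclin B bound to the kinase CDK1 is switched on by CDC25 phosphatases. Kinesins and their partners then build the spindle, kinetochores tie the chromosomes to it, and condensins compact the chromosomes. The spindle checkpoint holds back the anaphase-promoting complex, a ubiquitin ligase, until every chromosome is attached, after which separase cuts the sister chromatids apart and the cytokinesis proteins divide the cell. Transcripts of most of these genes are made late in the cell cycle, and neurons, which no longer divide, are known to hold little of them.

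In these cells the mitotic transcripts were lower with CYSP but still present. The 48 genes together took 0.234%, 0.262% and 0.246% of all counts in CK 1, 2 and 3, and 0.0891%, 0.0909% and 0.0888% in CYSP 1, 2 and 3. The groups did not overlap, and CK 2 was the highest of its group. Summed over the 48 genes, the level was 2403 ± 134 CPM in CK and 922 ± 9.47 CPM in CYSP (mean ± SD, n = 3 per group), so that CYSP held 38.4% of the CK level. CPM stands for a count relative to the size of its library, here scaled between samples with the trimmed mean method (TMM). In bulk RNA, fewer dividing cells and less RNA of these genes per cell cannot be told apart.

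In the quasi-likelihood test of edgeR, with p-values adjusted by Benjamini-Hochberg over all 12623 genes tested and a threshold of 0.05, 46 of the 48 genes were lower, 0 were higher and 2 did not pass. Among all genes tested, 37.8% were lower and 38.2% were higher. At an unadjusted p below the same threshold none of the 48 was higher with edgeR or DESeq2, and limma-voom had 1, Cdc25c. The median log2 fold change was -1.48, against 0.005 over all genes tested. A fall of at least 1 on the log2 scale was seen in 38 of the 48, against 12.7% of all genes tested. In 46 genes every CYSP sample lay below every CK sample, which was so for 38.2% of all genes tested. DESeq2 also gave 46 lower, against 31.3% of all genes it tested, as did a stricter filter of 50 counts in 3 samples (39.1%). The calls lean on the small spread between samples: with an assumed coefficient of variation of 0.2 there were 41 lower (22.2% of all genes) and with 0.4 there were 30 (9.58%), and 32 passed a test against a log2 fold change of 1 (9.64%).

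**Figure D1:**
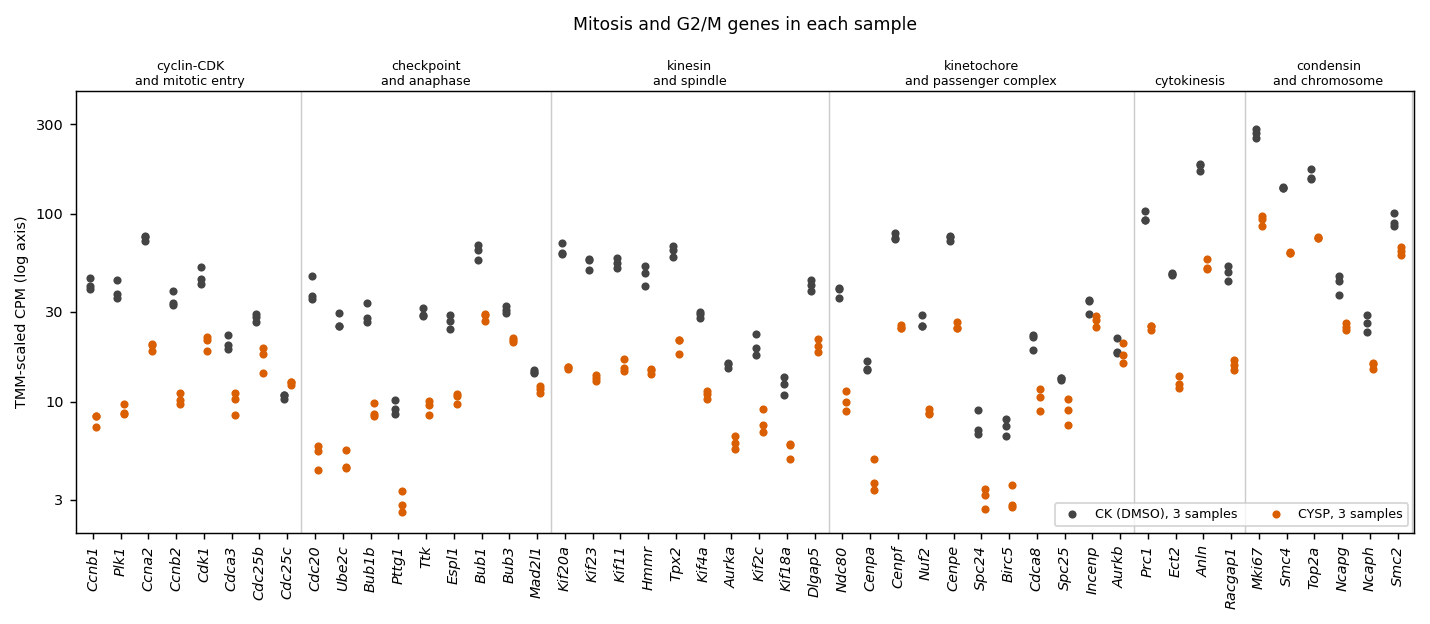
TMM-scaled CPM on a log axis for the 48 mitosis and G2/M genes, with 1 point per sample (grey, 3 CK samples given DMSO; orange, 3 CYSP samples), by role and within a role from the largest fall to the smallest. The orange points lie below the grey ones for 46 genes, overlap with them for Aurkb and lie above them for Cdc25c.

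Total counts per sample were 15060933 to 17244700. For a gene with 0 counts, 3 counts are roughly the upper 95% limit, and they came to 0.174 to 0.199 CPM before TMM scaling. Every one of the 48 genes lay above 2 CPM in each sample. Of the 10 stromal markers listed 5 rose, among them Thy1, Nt5e and Eng, and 4 fell, among them Col1a1, Pdgfrb and Itgb1. Their summed level was 44300 to 46100 CPM in CK and 12760 to 13660 CPM in CYSP. Col1a1 alone had 40650 CPM in CK and 9663 CPM in CYSP. Of 12 markers of macrophages and other leukocytes 10 fell, 1 rose and 1 did not pass, against 37.8% lower and 38.2% higher among all genes tested. Their summed level was 1767 to 2003 CPM in CK and 565 to 570 CPM in CYSP. Ptprc, the leukocyte antigen CD45, had 62.3 CPM in CK and 21.8 CPM in CYSP. Cd163, the marker that rose, had 0.041 CPM in CK and 16.6 CPM in CYSP. Transcripts encoded in mitochondria took 4.96% to 5.05% of counts in CK and 10.9% to 11.1% in CYSP. None of the 12 leukocyte markers was at 0 in all samples. The part of the leukocyte transcripts in the lower mitotic level was not tested. Markers of dividing blood cells summed to 0.440 to 0.785 CPM in CK and 0.270 to 0.887 CPM in CYSP, with Gata1 and Elane at 0 throughout. Without the mitochondrial transcripts 46 genes still fell, and the median log2 fold change was -1.47. Among 10 neuron markers Rbfox3, the nuclear antigen NeuN, had no count in any sample, and of the 4 that passed the filter on low counts 2 rose and 2 fell. Tubb3 rose from 8.66 to 37.8 CPM and Snap25 from 0.0201 to 48.8 CPM, while Map2 fell from 4.27 to 1.35 CPM and Dcx from 1.58 to 0.0657 CPM. The summed level of the list was 14.3 to 14.9 CPM in CK and 87.2 to 92.2 CPM in CYSP. Fat cell markers summed to 75.3 to 81.7 CPM in CK and 606 to 638 CPM in CYSP, where Adipoq had 519 CPM against 0.199 CPM in CK; of the 4 tested 2 rose, 1 fell and 1 did not pass, and Cidec was at 0 throughout. Endothelial markers summed to 1.51 to 2.32 CPM in CK and 2.57 to 4.09 CPM in CYSP, with Emcn at 0 throughout, and of the 3 tested 2 rose and 1 fell. The part of these cell types in the lower mitotic level was not tested either.

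Many promoters of late cell cycle genes carry a short element called CHR (cell cycle genes homology region), read by the MuvB complex, with boxes for the factor NF-Y close by. The promoters of the listed genes were searched for both. The list was chosen as genes of G2 and mitosis, so high shares of these elements can follow from that choice alone. Any link of the elements to the change with CYSP was not tested. RefSeq promoter sequences on the rat build GRCr8 were found for 43 of the 49 listed genes, and the window from 170 bases before to 30 bases after the annotated start was used. The deposited table names no build, so genes were matched by symbol; Ccna2, Ube2c, Tpx2, Aurkb, Incenp and Racgap1 had no entry. On either strand, TTTGAA, the common form of CHR, stood in 25 of these 43 windows (58.1%), against 11.7% of the windows of all 27457 genes with a promoter and 6.6% of those of the tested genes outside the list. CCAAT, the core of the NF-Y box, stood in 30 of the 43 (69.8%). Its shares were 28.7% of all genes and 30.1% of the tested genes outside the list. At least 2 copies stood in 19 (44.2%), against 7.08% and 9.63% in that order. Both elements stood in 20 (46.5%), against 3.59% and 2.19%. The rarer form TTCGAA stood in 3, against 1.06% of all genes. A match is a run of letters, not a shown binding site.

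The windows below show this arrangement in the 6 genes with both elements that fell furthest, followed by Spc25, the gene with both elements that fell least. Each reads 5′ to 3′ along its gene, with TTTGAA and CCAAT (or its reverse complement ATTGG) in capitals.
Cdc20, chr5:137255770-137255969, strand −: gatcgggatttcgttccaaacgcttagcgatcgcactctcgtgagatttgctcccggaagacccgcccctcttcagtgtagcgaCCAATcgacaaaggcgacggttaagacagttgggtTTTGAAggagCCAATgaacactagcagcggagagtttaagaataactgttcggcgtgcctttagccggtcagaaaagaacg
Plk1, chr1:186147488-186147687, strand +: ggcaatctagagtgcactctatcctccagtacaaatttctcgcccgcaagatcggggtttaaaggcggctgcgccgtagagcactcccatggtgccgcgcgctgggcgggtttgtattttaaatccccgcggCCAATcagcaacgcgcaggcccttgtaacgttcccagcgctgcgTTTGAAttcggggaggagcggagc
Kif23, chr8:71320555-71320754, strand −: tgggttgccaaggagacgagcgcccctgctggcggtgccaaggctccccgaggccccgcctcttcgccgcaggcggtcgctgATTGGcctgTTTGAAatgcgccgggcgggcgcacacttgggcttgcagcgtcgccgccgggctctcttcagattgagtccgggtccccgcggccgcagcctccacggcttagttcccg
Prc1, chr1:143659311-143659510, strand +: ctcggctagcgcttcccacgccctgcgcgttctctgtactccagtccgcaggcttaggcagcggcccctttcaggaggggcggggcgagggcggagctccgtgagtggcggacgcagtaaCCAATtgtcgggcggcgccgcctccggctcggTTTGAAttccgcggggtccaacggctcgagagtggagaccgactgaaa
Ect2, chr2:111966597-111966796, strand −: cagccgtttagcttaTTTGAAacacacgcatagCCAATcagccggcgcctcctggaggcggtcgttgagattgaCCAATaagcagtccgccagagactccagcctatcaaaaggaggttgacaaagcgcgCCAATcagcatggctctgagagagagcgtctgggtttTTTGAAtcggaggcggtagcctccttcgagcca
Ccnb2, chr8:79981629-79981828, strand −: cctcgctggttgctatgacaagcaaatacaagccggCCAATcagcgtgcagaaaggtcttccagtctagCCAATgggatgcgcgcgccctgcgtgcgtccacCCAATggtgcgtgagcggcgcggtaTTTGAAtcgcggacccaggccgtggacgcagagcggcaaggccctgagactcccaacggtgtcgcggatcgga
Spc25, chr3:74396689-74396888, strand −: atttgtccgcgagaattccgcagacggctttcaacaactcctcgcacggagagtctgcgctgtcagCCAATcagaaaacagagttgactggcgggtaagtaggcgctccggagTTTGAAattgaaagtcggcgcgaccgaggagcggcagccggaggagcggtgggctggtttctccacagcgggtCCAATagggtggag
The 3 boxes of Ccnb2, spaced along the window ahead of a single TTTGAA, are the plainest example, and Cdc20 has its TTTGAA between 2 boxes. In Ndc80 and Nuf2, partners in one kinetochore complex, neither element was matched, and they are printed for comparison as the largest falls, -1.94 and -1.59 on the log2 scale, of the 8 tested genes with neither. Over those 8 the median log2 fold change was -1.25 (range -1.94 to -0.31), and over the 20 with both it was -1.57 (range -2.93 to 0.23).
Ndc80, chr9:118887500-118887699, strand −: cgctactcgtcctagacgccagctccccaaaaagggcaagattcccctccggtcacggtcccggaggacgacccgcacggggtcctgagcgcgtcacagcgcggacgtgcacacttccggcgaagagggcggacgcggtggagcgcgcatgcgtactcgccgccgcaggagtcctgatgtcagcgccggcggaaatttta
Nuf2, chr13:84255569-84255768, strand −: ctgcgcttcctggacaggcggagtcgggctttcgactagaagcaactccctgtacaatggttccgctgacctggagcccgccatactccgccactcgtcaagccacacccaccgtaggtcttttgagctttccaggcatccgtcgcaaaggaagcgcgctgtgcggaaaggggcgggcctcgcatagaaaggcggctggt
Over the genes with a window and a fold change, the median log2 fold change was -1.61 in the 25 with TTTGAA (range -2.93 to 0.23) and -1.31 in the 17 without it (range -2.40 to -0.31). The ranges overlap widely, and Cdc25c, which did not fall, has both elements.

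**Figure D2:**
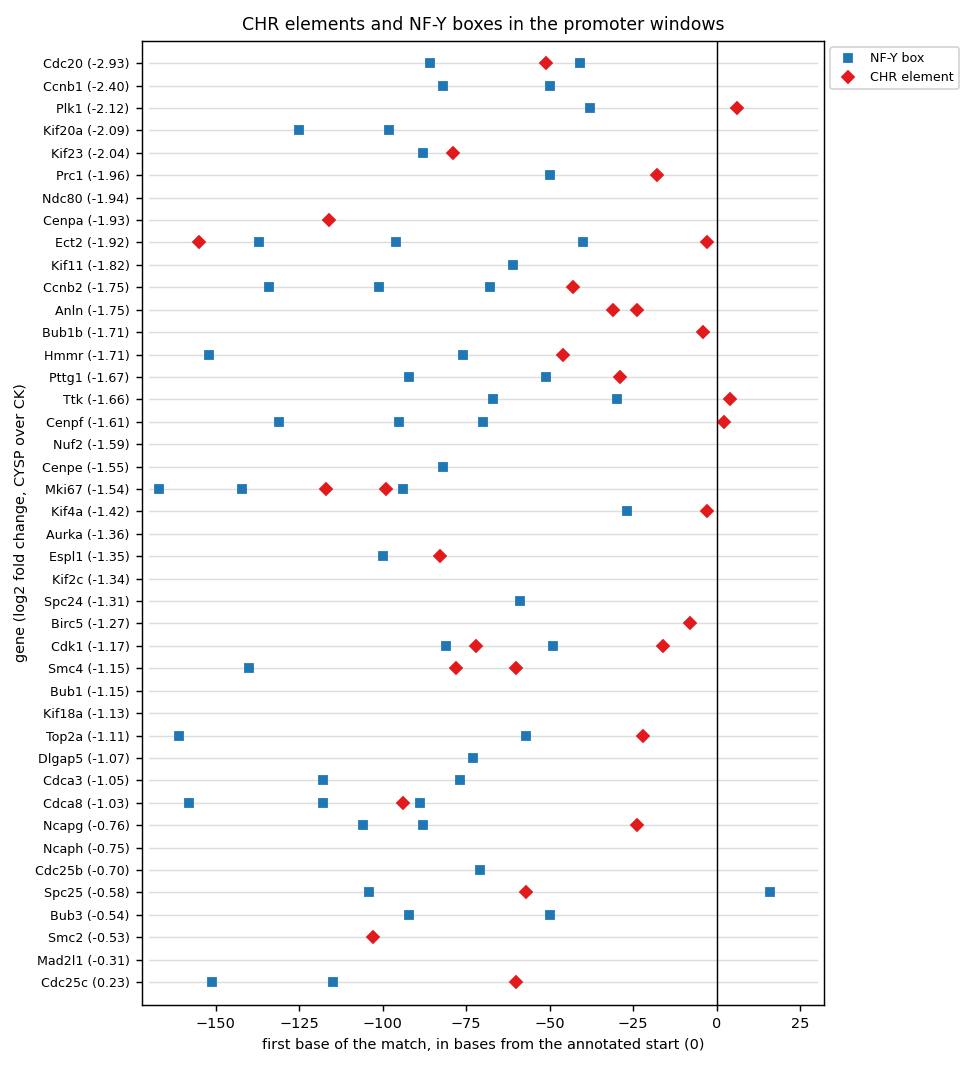
Position of CHR elements (red diamonds) and NF-Y boxes (blue squares) in the promoter windows of the 42 tested genes that have one, in bases from the annotated start, with genes ordered by log2 fold change (in brackets). Of the 30 CHR matches 27 lie before the start, with a median first base at -44.5. Of the 52 NF-Y boxes 51 do, with a median at -88. Genes without a CHR match run from Ccnb1 (-2.40) to Mad2l1 (-0.31). Those without an NF-Y box run from Ndc80 (-1.94) to Mad2l1, and every gene shown that fell further than Ndc80 has a box.

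Cyclins and the kinases of mitotic entry fell, with 1 exception. Of the 8 genes of this role 7 fell, against 37.8% of all genes tested, the median log2 fold change being -1.46. Every CYSP sample lay below every CK sample in 38.2% of all genes tested. This share is to be set beside each gene without overlap in this and the following roles. Values of single samples are given in the order of replicates 1, 2 and 3. Ccnb1, cyclin B1, had 41.5, 45.4 and 40.0 CPM in CK and 7.35, 8.375 and 8.325 CPM in CYSP. The lowest CK sample was far above the highest CYSP sample, and the log2 fold change was -2.40 (SE 0.09, edgeR adjusted p = 2.56e-37). Ccna2, cyclin A2, which acts from S phase into early mitosis, had 71.8, 76.3 and 75.6 CPM in CK and 20.3, 18.6 and 19.9 CPM in CYSP, a log2 fold change of -1.93. The samples of each group lay close together. Cdk1, the kinase that both cyclins bind, had 42.3, 52.4 and 44.7 CPM in CK and 18.5, 21.3 and 22.1 CPM in CYSP. Its groups did not overlap either, with CK 2 the highest sample, but its log2 fold change of -1.17 (95% interval -1.33 to -1.01) was smaller than that of Ccnb1, whose interval of -2.59 to -2.21 does not reach it.

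Plk1, the polo kinase that promotes entry and later steps of mitosis, had 35.6, 44.3 and 37.4 CPM in CK and 8.68, 8.58 and 9.69 CPM in CYSP. The CYSP samples lay close together, far below CK (log2 fold change -2.12, edgeR adjusted p = 3.79e-33). Ccnb2, cyclin B2, had 32.8, 38.7 and 33.6 CPM in CK and 11.1, 10.2 and 9.76 CPM in CYSP. Its groups did not overlap and it fell by 1.75 on the log2 scale, and Cdca3, which takes part in the destruction of the mitotic inhibitor WEE1, by 1.05. The CDC25 phosphatases, which remove inhibitory phosphates from CDK1, were the smallest changes of the role. Cdc25b had 29.4, 26.4 and 28.1 CPM in CK and 19.3, 14.25 and 17.95 CPM in CYSP, a log2 fold change of -0.70. Cdc25c had 10.8, 10.4 and 10.8 CPM in CK and 12.7, 12.7 and 12.2 CPM in CYSP. Each CYSP sample of Cdc25c was above each CK sample, as in 38.8% of all genes tested, but the difference did not pass the test (log2 fold change 0.23, 95% interval -0.002 to 0.47, edgeR adjusted p = 0.067). The FPKM ratio of Cdc25c to Cdc25b was 0.556 to 0.592 in CK and 0.992 to 1.35 in CYSP, with no overlap.

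Checkpoint and anaphase genes held both the largest fall and some of the smallest. All 9 fell, against 37.8% of all genes tested, the median log2 fold change being -1.66. Cdc20, which activates the anaphase-promoting complex and is the target of the checkpoint, had 36.5, 46.9 and 35.4 CPM in CK and 4.31, 5.47 and 5.80 CPM in CYSP. Its CK 2 value stood well above the other CK samples, yet every CK sample exceeded every CYSP sample several times over. The log2 fold change was -2.93 (SE 0.12, edgeR adjusted p = 7.29e-28), and only 2.80% of all genes tested had a lower one. Ube2c, the ubiquitin-conjugating enzyme of the same complex, had 25.15, 29.5 and 25.2 CPM in CK and 5.52, 4.46 and 4.44 CPM in CYSP, a log2 fold change of -2.46. Its groups were as clearly apart, and its second identifier had no count in any sample.

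Some checkpoint genes fell little. Mad2l1, which holds CDC20 inactive, had 14.3, 14.75 and 14.3 CPM in CK and 11.2, 12.2 and 11.7 CPM in CYSP, a log2 fold change of -0.31 (edgeR adjusted p = 0.0103). Bub3, a partner of the BUB kinases, had 30.9, 29.6 and 32.1 CPM in CK and 21.7, 20.7 and 21.15 CPM in CYSP, a log2 fold change of -0.54. The groups did not overlap for either gene, with a small gap for Mad2l1. Within samples, the FPKM ratio of Cdc20 to Mad2l1 was 2.31, 2.88 and 2.24 in CK and 0.345, 0.407 and 0.447 in CYSP, so that Cdc20 stood above Mad2l1 per length in each CK sample and below it in each CYSP sample. FPKM also divides by transcript length, so levels of different genes can be compared as far as the lengths used are right. Those lengths were not checked. Bub1b, the checkpoint protein BUBR1, and Ttk, the kinase MPS1, fell by 1.71 and 1.66 on the log2 scale, and Bub1 by 1.15. Espl1, the protease separase, and Pttg1, its inhibitor securin, fell by 1.35 and 1.67, and their FPKM ratio overlapped between groups.

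All 10 kinesin and spindle genes fell, against 37.8% of all genes tested, the median log2 fold change being -1.53 and none above -1.08. Kif20a, a kinesin of late mitosis and cytokinesis, had 60.9, 70.4 and 62.0 CPM in CK and 14.9, 15.2 and 15.2 CPM in CYSP. The CYSP samples differed little from each other, and the log2 fold change was -2.09 (SE 0.07, edgeR adjusted p = 3.46e-40). Kif23, the kinesin of the centralspindlin complex, had 50.2, 57.1 and 57.35 CPM in CK and 12.9, 13.9 and 13.4 CPM in CYSP. Its groups were as far apart, and Kif11, which pushes the spindle poles apart, fell by 1.82 on the log2 scale. Tpx2, which activates Aurora A on the spindle, had 58.6, 67.7 and 64.2 CPM in CK and 21.25, 18.0 and 21.4 CPM in CYSP. Aurka, which encodes Aurora A, fell by 1.36 on the log2 scale and Tpx2 by 1.65. Hmmr, a spindle-associated protein, fell by 1.71. Kif4a, a chromosome-bound kinesin, fell by 1.42, Kif2c, which removes tubulin from microtubule ends, by 1.34, and Kif18a, which limits chromosome swings, by 1.13. Dlgap5, a spindle assembly factor, had 41.96, 44.6 and 39.0 CPM in CK and 19.85, 21.4 and 18.3 CPM in CYSP. Its log2 fold change of -1.08 was the smallest fall of the role, still with no overlap.

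Kinetochore genes fell, while the passenger complex was split. Of 11 genes in this role 10 fell and 1 did not pass, the median log2 fold change being -1.31. Among all genes tested 37.8% fell. Ndc80, the microtubule-binding subunit of the NDC80 complex, had 35.6, 40.1 and 40.0 CPM in CK and 9.895, 11.35 and 8.87 CPM in CYSP. The groups did not overlap, with a log2 fold change of -1.94 (SE 0.09, edgeR adjusted p = 1.22e-31). Its partners in the complex, Nuf2, Spc24 and Spc25, had log2 fold changes of -1.59, -1.31 and -0.58. Nuf2 had 25.3, 28.9 and 25.2 CPM in CK and 8.68, 8.58 and 9.08 CPM in CYSP. Spc25, which fell least of the complex, had 13.4, 13.4 and 13.1 CPM in CK and 7.53, 10.3 and 9.01 CPM in CYSP. In both, all CK samples were above those of CYSP. The FPKM ratio of Spc24 to Spc25 was 0.918 to 1.26 in CK and 0.568 to 0.696 in CYSP. Cenpa, the histone variant that marks the centromere, had 14.8, 14.8 and 16.4 CPM in CK and 4.92, 3.38 and 3.685 CPM in CYSP. Its groups did not overlap, with a log2 fold change of -1.93. The large outer kinetochore proteins Cenpe, a kinesin, and Cenpf fell by 1.55 and 1.61.

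The chromosomal passenger complex consists of the kinase Aurora B (Aurkb), the scaffold Incenp, survivin (Birc5) and borealin (Cdca8), and corrects faulty attachments. Aurkb had 18.4, 21.85 and 18.2 CPM in CK and 20.5, 16.1 and 17.7 CPM in CYSP. The groups overlapped, and the difference did not pass the test (log2 fold change -0.10, 95% interval -0.30 to 0.09, edgeR adjusted p = 0.343). Incenp had 29.3, 34.3 and 34.95 CPM in CK and 24.9, 27.3 and 28.5 CPM in CYSP, a log2 fold change of -0.29 (edgeR adjusted p = 7.19e-04). The highest CYSP sample lay just below the lowest CK sample. Birc5 had 7.39, 6.53 and 8.09 CPM in CK and 2.79, 3.58 and 2.73 CPM in CYSP, a log2 fold change of -1.28. Cdca8 had 18.7, 22.0 and 22.6 CPM in CK and 8.86, 11.6 and 10.5 CPM in CYSP, a log2 fold change of -1.03. Neither gene had overlapping groups. The FPKM ratio of Birc5 to Incenp was 0.553 to 0.712 in CK and 0.281 to 0.399 in CYSP, and that of Cdca8 to Incenp was 1.36 to 1.38 in CK and 0.788 to 0.968 in CYSP. The ratio of Aurkb to Incenp overlapped between groups.

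All 4 cytokinesis genes fell, against 37.8% of all genes tested, within a narrow band from -1.96 to -1.63 on the log2 scale. Prc1, which bundles the microtubules of the central spindle, had 93.2, 103.9 and 93.3 CPM in CK and 24.0, 25.3 and 25.2 CPM in CYSP. The groups were far apart, with a log2 fold change of -1.96 (SE 0.06, edgeR adjusted p = 3.24e-44). Anln, the contractile ring scaffold anillin, had 170.2, 185.5 and 181.3 CPM in CK and 51.6, 57.2 and 50.6 CPM in CYSP. Its CYSP samples also lay far below those of CK (log2 fold change -1.75). Ect2, which activates the GTPase RhoA at the division plane, had 47.4, 48.0 and 48.5 CPM in CK and 11.8, 12.4 and 13.7 CPM in CYSP, a log2 fold change of -1.92. Racgap1, the partner of Kif23 in centralspindlin, had 43.7, 52.9 and 48.8 CPM in CK and 14.75, 15.6 and 16.65 CPM in CYSP, a log2 fold change of -1.63. Both were lower in each CYSP sample than in any CK sample. The FPKM ratio of Ect2 to Anln overlapped between the groups.

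Condensin and chromosome genes fell by less, the median log2 fold change being -0.93 over the 6. Mki67, which encodes the proliferation antigen Ki-67 that coats mitotic chromosomes, had 254.8, 283.5 and 270.1 CPM in CK and 93.8, 97.2 and 86.7 CPM in CYSP. Its groups did not overlap (log2 fold change -1.54, SE 0.04, edgeR adjusted p = 1.71e-43). Top2a, the topoisomerase that untangles chromatids, had 152.6, 173.6 and 155.2 CPM in CK and 75.5, 74.0 and 74.0 CPM in CYSP, a log2 fold change of -1.11. The FPKM ratio of Top2a to Mki67 lay between 1.02 and 1.09 in CK and between 1.35 and 1.52 in CYSP. Smc2 and Smc4, the ATPase core that both condensin complexes share, differed in size of change. Smc4 had 139.0, 137.5 and 138.1 CPM in CK and 61.9, 62.5 and 61.8 CPM in CYSP (log2 fold change -1.15). Smc2 had 85.95, 100.6 and 89.8 CPM in CK and 63.7, 66.7 and 60.7 CPM in CYSP (log2 fold change -0.53). Neither gene had overlapping groups, and the condensin I subunits Ncapg and Ncaph fell by 0.76 and 0.75.

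**Figure D3:**
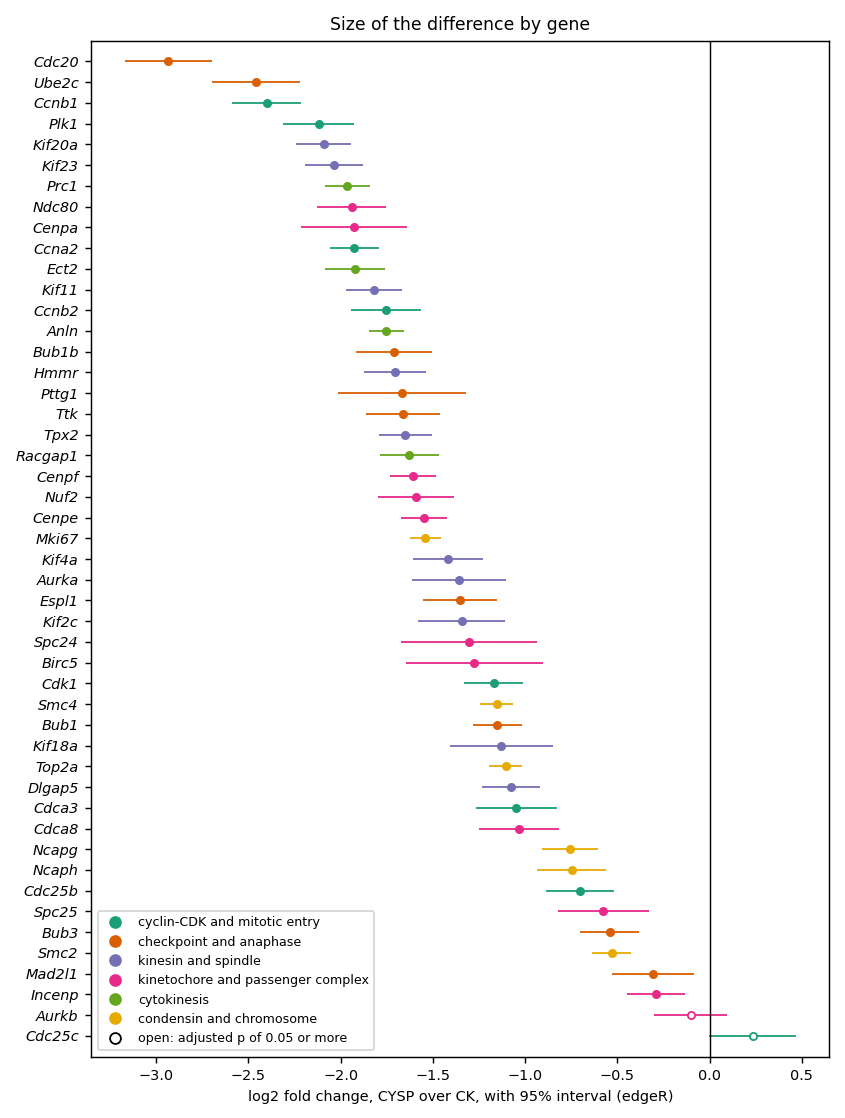
Log2 fold change of CYSP over CK with its 95% interval from edgeR for the 48 genes, coloured by role; open points did not pass the test. The values run from -2.93 for Cdc20 to 0.23 for Cdc25c, and the genes nearest to 0 are Aurkb, Cdc25c, Incenp and Mad2l1.

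Because the genes fell by unequal amounts, their order by level changed. Per length, Ube2c had the highest mean FPKM of the 48 in CK, 40.3, followed by Anln with 39.4 and Cdk1 with 35.3. In CYSP the highest was Bub3 with 15.1 FPKM, then Cdk1 with 14.8 and Smc4 with 13.9, whose neighbouring means lie close together. Ube2c, with 6.57 FPKM, was the 17th, and Aurkb moved from rank 28 to rank 7. As a share of the summed counts of the 48 genes, Cdc20 went from 1.64% ± 0.187 to 0.563% ± 0.0865 and Smc2 from 3.83% ± 0.113 to 6.91% ± 0.254 (n = 3 per group). Mki67 held the largest share in both groups, with 11.2% in CK and 10.03% in CYSP. These shares and the ratios between genes of a sample do not depend on the scaling between libraries. The 21 ratios were chosen by known partnership with the fold changes in view, and 3 samples against 3 cannot give an exact two-sided permutation p below 0.1, so none is tested.

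**Figure D4:**
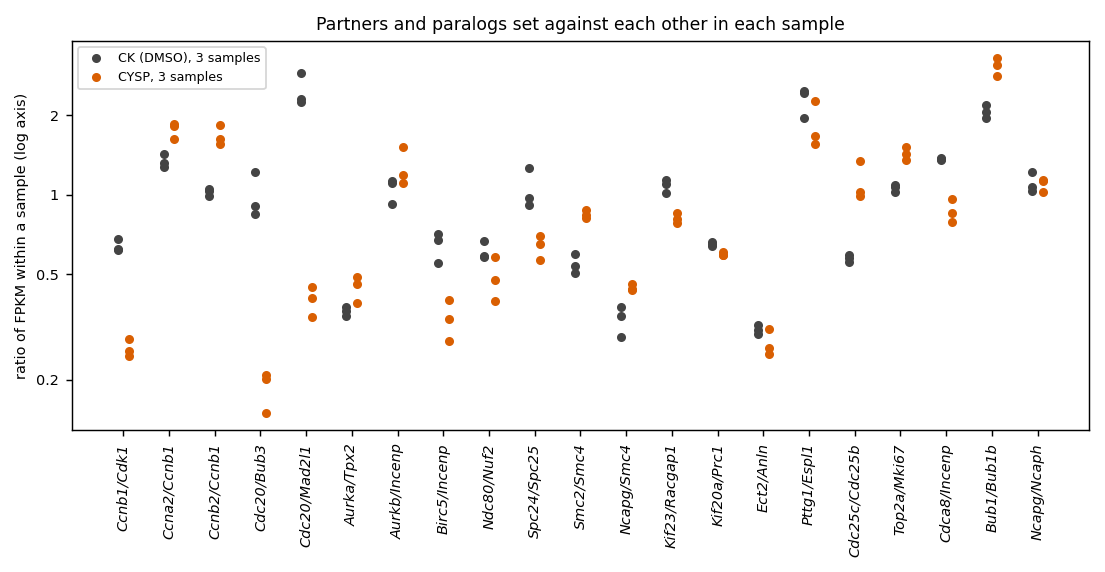
Ratio of the FPKM of 2 genes within each sample on a log axis, for 21 pairs of partners, paralogs or antagonists (grey, 3 CK samples; orange, 3 CYSP samples). The ratios of Cdc20 to Bub3 and to Mad2l1 and of Ccnb1 to Cdk1 are the furthest apart between groups, while those of Aurkb to Incenp, Ndc80 to Nuf2, Ect2 to Anln, Pttg1 to Espl1 and Ncapg to Ncaph overlap.

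Most mitosis genes outside the 49 fell too. Of 52 further mitosis genes tested, 47 were lower and 1 was higher (median log2 fold change -1.07), against the 37.8% lower and 38.2% higher among all genes tested. Pimreg, a mitotic regulator, fell from 17.4 ± 1.93 to 2.43 ± 0.268 CPM, Sgo2, which protects centromeric cohesin, from 12.7 ± 0.837 to 2.29 ± 0.391 CPM, and Ckap2l, a spindle protein, from 31.6 ± 2.75 to 7.02 ± 1.62 CPM (n = 3 per group). Depdc1 fell by 2.10 on the log2 scale. The 1 that rose, Gtse1, a microtubule-binding protein of G2 and mitosis, had 28.2 ± 0.337 CPM in CK and 32.1 ± 2.77 CPM in CYSP (log2 fold change 0.19, edgeR adjusted p = 0.0222), and no gene of this list was higher with DESeq2 or without CK 1, CYSP 1 or CYSP 3. TTTGAA stood in 26 of the 47 promoter windows found for this list (55.3%).

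The regulators of these genes were mixed. Of 21 tested 11 fell, 5 rose and 5 did not pass, against 37.8% lower and 38.2% higher among all genes tested. Foxm1, the transcription factor that drives many G2 genes, fell from 12.3 ± 2.48 to 3.68 ± 1.55 CPM (n = 3 per group), a log2 fold change of -1.76 with an edgeR adjusted p of 7.37e-05. Mybl2, which joins the MuvB complex to activate the same promoters, had 28.8 ± 3.10 CPM in CK and 28.0 ± 1.78 CPM in CYSP and did not pass the test. The pocket protein genes Rb1 and Rbl2, whose products hold cell cycle genes off in resting cells, rose by log2 fold changes of 0.53 and 0.51, while the third of the family, Rbl1, fell by 0.56. Among E2F genes, E2f7, a repressor, fell by 1.41 on the log2 scale, and E2f2, an activator, rose from 1.26 ± 0.398 to 4.01 ± 0.435 CPM. Of the NF-Y subunit genes, Nfyc fell by 1.10 and Nfyb by 0.22, and Nfya rose by 0.18.

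Among all genes tested 37.8% were lower and 38.2% higher, the shares to set beside the lists here. Of 15 tested genes of the anaphase-promoting complex 12 were lower and 1 was higher (median log2 fold change -0.35). Its inhibitor Fbxo5 fell by 1.75 on the log2 scale, its subunits Cdc16, Cdc23 and Anapc1 by 0.74, 0.64 and 0.61, and the ubiquitin-chain enzyme gene Ube2s rose from 83.9 ± 3.92 to 107.4 ± 3.55 CPM. Of 13 cohesin and condensin II genes 11 fell and 2 did not pass, with a median of -0.40. Ncapg2 and Ncapd3 of condensin II fell by 1.21 and 0.65, the cohesin loader gene Nipbl by 0.67 and the cohesin gene Smc3 by 0.62. Of 17 further genes of kinetochore and checkpoint proteins 9 fell, 3 rose and 5 did not pass. Cenpt stood at -1.65, Ska2 at -1.21, Zwint at 0.99 and Spdl1 at 0.94.

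Of 14 tested G2 checkpoint genes 8 fell, 2 rose and 4 did not pass. The shares to set beside each list of this paragraph were 37.8% lower and 38.2% higher among all genes tested. Wee1, the kinase that restrains CDK1, fell by 1.44 and Chek1, a checkpoint kinase, by 1.09 on the log2 scale. Chek2, the other checkpoint kinase, and Ccng2, an atypical cyclin of arrested cells, rose by log2 fold changes of 1.01 and 1.66. Among kinesins that carry cargo and their light chains, 12 of 17 tested rose and 4 fell, while the 6 genes of the kinesin role named Kif all fell. Kif1a, a carrier of synaptic vesicle precursors, rose from 0.539 ± 0.029 to 334 ± 2.31 CPM, Kif21a from 6.06 ± 0.0888 to 37.9 ± 1.04 CPM and Kif13b from 34.4 ± 2.64 to 67.7 ± 1.61 CPM. Kif13a, an endosomal carrier, fell from 65.0 ± 3.13 to 28.3 ± 2.53 CPM, and Kif5b, the ubiquitous kinesin heavy chain, by 0.64 on the log2 scale. The list named for the nuclear lamina and contractile ring also holds Chmp4b and Pdcd6ip, which are part of neither. Of its 12 genes 8 were found, with 7 lower and Chmp4b higher. Lmnb1, lamin B1, fell by 2.03, Lmna, lamin A/C, by 1.95, and the non-muscle myosins Myh9 and Myh10 by 2.89 and 2.23.

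**Figure D5:**
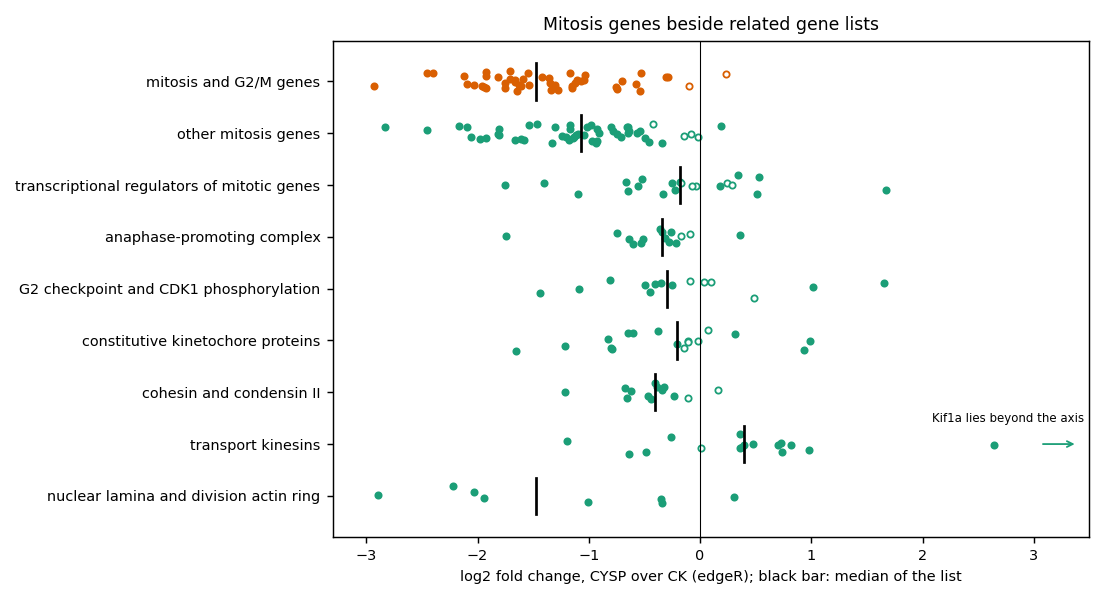
Log2 fold change of CYSP over CK (edgeR) of each tested gene, by list, for the 48 mitosis and G2/M genes (orange) and 8 related lists (green); open points did not pass the test and the black bar is the median of a list. The medians are -1.48 and -1.07 for the mitosis lists and 0.40 for the transport kinesins. The list named for the nuclear lamina and contractile ring has -1.48. The medians lie between -0.40 and -0.18 for the regulators, the anaphase-promoting complex, the G2 checkpoint, the cohesins and the further kinetochore proteins. The last list is labelled constitutive in the figure. Kif1a lies beyond the axis at 9.26.

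In the deposited annotation, 15 of the 48 genes carried the KEGG pathway Cell cycle, against 0.959% of all genes tested, and 19 the GO process cell division (1.497%). By place in the cell, 17 were annotated to the kinetochore (0.903%) and 16 to the spindle (1.006%). The midbody, the bridge left between daughter cells, had 13 (1.062%). The list was chosen as genes of G2 and mitosis, so high shares of these terms can follow from that choice alone. Of the 59 other tested genes annotated to chromosome segregation 37 were lower and 10 higher (median log2 fold change -0.37). Those annotated to the midbody were 55 lower and 44 higher of 121, with a median of -0.04. The shares among all genes tested were 37.8% lower and 38.2% higher. By the authors' deposited table, 46 of the 48 genes were lower and none higher at an adjusted p below the same threshold, against 38.7% of the genes tested here that were lower by that table, and the authors' log2 fold changes were lower than those of edgeR by 0.07 to 0.21.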

How the data were processed

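Poly(A) RNA of 6 samples, extracted with Trizol and enriched on oligo(dT) beads, was sequenced, per the labels' protocols. The submitters' processing notes name fastp 0.18.0, HISAT2, StringTie 1.3.1 and RSEM with no role (build, annotation, counting tool and use of strand: not given in the sources used here). The deposited table holds raw counts per gene and sample and FPKM per sample, per the file headers. It also holds the authors' mean FPKM, their log2 fold change of the means, and the deposited p-value with its adjusted form, whose test no source used here names.

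Samples were grouped by title. Counts were tested with edgeR 4.0.16 in R 4.3.3 (filterByExpr, TMM, robust glmQLFit, glmQLFTest) over 12623 genes, with Benjamini-Hochberg adjustment. Standard errors come from the fold change and F statistic. Alternatives were other scalings, DESeq2 1.42.0, limma 3.58.1 (voom, and trend on log2(FPKM + 1) or log2(FPKM + 0.1) with a mean FPKM of at least 0.5), other filters, glmTreat, an assumed coefficient of variation of 0.2 or 0.4, summed identifiers, left-out samples and a replicate block. The fit without mitochondrial transcripts was added after seeing the data. The test was also run on simulated counts drawn with the spread estimated from these samples. That run cannot show how the calls hold under a larger spread.

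The genes and lists were chosen with earlier results of these data known. Values in every sample are given, per role, for the 3 genes highest in FPKM, the 2 largest changes, the smallest, and any gene that did not fall. From each other list up to 4 of the largest changes (mean of at least 1 CPM) and 2 of the minority direction are named. Incenp, Birc5, Spc25 and Cdc25b, and Mybl2, Rbl1, Rbl2, Nfya and Nfyb, were added by role after their values were seen. Promoters are from RefSeq (GRCr8), with the first listed start of a gene.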

Additional observations from a re-analysis of the deposited data

How the results depend on the processing

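The count of 46 lower and 0 higher among the 48 genes was the same under every scaling and filter tried, with DESeq2, limma-voom and limma on FPKM, with summed identifiers and without mitochondrial transcripts. The share of all genes called lower was 37.8% in the main fit, 31.3% with DESeq2 and 42.1% with limma on log2(FPKM + 1). It was 39.1% with the filter of 50 counts in 3 samples. No gene of the 48 changed sign under any alternative. Leaving out each sample gave 46 to 46 lower and 0 to 0 higher, medians of -1.52 to -1.45, and 45 to 47 lower and 0 to 1 higher among the further mitosis genes.

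The small spread between samples carries the weaker calls. With an assumed coefficient of variation of 0.4, 30 of the 48 genes and 17 of the further mitosis genes were lower, against 9.58% of all genes, and with 0.2 the 48 gave 41 (22.2%). Against a log2 fold change of 1 (glmTreat) the counts were 32 (9.64%) and 17. Of the values per gene, 973 kept their side of the threshold and 35 lost it, all under these 3 settings. On log2(FPKM + 1) the median was -1.21, and on log2(FPKM + 0.1) it was -1.53. The 1 higher gene of the further list was 0 with library size only, DESeq2, both limma fits on FPKM, glmTreat and both assumed coefficients.

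The replicate numbers do not mark a stated pairing, and deviations of same-numbered samples correlated at -0.000633, 0.0185 and -0.00885. With the replicate block 46 of the 48 genes and 47 further genes were lower and 0 and 1 higher, with a median of -1.48. Of the 6 samples, CK 2 and CYSP 2 correlated best with each other, and not every sample did so with its own number.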

Other observations

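Among the control samples CK 2 had the highest level for 33 of the 48 genes (68.8%), CK 3 for 12 and CK 1 for 3. Over all genes tested CK 2 was the highest for 34.9%. The summed level of the 48 genes was 2274, 2542 and 2395 CPM in CK 1, 2 and 3, while in CYSP it was 922, 932 and 913 CPM, with the highest value spread over the samples (16, 18 and 14 genes). The largest coefficient of variation in CK was 16.5%, for Spc24, with CK 3 the highest sample. Cdc20, Plk1 and Hmmr, with CK 2 the highest, had 16.0%, 11.7% and 11.8%. Ncapg, with CK 3 the highest, had 12.2%, and Smc4 had 0.539%. Without CK 2 the count of 46 lower genes was the same and the median log2 fold change was -1.45.

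Where both elements stood in a promoter window of the 49 genes, the first bases of TTTGAA and of the nearest CCAAT lay 5 to 72 bases apart, with a median of 27.5. In 2 cases the matches shared a base.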
